A study of Mus musculus with 4 samples.

Results

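The suppressors of cytokine signalling (SOCS) are a family of 8 genes, Socs1 to Socs7 and Cish, and their transcripts were compared between 2 cell populations of healing mouse skin, macrophages bearing CD301b and immune cells lacking F4/80 (F4/80-negative cells). Members were taken by symbol from the authors' deposited isoform table, which yielded 8 of its 24358 genes and 12 of its 34535 transcripts. Both populations were sorted by flow cytometry from the dermis of wound beds on day 5, from male C57/Bl6 mice aged 7 weeks, and each is represented by 2 libraries. CD301b is a C-type lectin carried by a subset of macrophages, and F4/80 is a surface protein of most mouse macrophages. No transgene, mutation or treatment besides the wound is named in the labels. They do not say whether a library pooled animals or whether the libraries came from separate ones, so the p-values may cover technical spread alone.

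SOCS proteins are the classical feedback inhibitors of cytokine receptors that signal through Janus kinases (JAK) and the STAT transcription factors. A cytokine activates its receptor's JAK, the JAK phosphorylates a STAT, and the STAT switches on SOCS genes whose products then shut the receptor down. Each SOCS protein carries an SH2 domain that binds phosphotyrosine and a SOCS box that recruits elongins and a cullin, forming a ubiquitin ligase for its target. In macrophages the family is best known for restraining the responses to interferons, to interleukin 6 and to Toll-like receptor ligands.

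The 5′ regions of Cish, Socs1 and Socs3 are shown because their feedback control by STAT factors is the best known of the family. Promoter windows in RefSeq (GRCm38.p6), from 250 bases before to 50 bases after a start site, were used for 4 of the 8 members, namely Socs1, Socs3, Socs4 and Cish. The start site is the 5′ end of the RefSeq gene, except in Socs3, where it is the start of the deposited transcript, 970 bases inside the RefSeq gene span. Capitals mark a match to TTCNNNGAA, the core of a STAT binding site, or to GAAANNGAAA, a core of interferon response elements, each searched on both strands.
Cish (chr9:107296409-107296708, plus strand): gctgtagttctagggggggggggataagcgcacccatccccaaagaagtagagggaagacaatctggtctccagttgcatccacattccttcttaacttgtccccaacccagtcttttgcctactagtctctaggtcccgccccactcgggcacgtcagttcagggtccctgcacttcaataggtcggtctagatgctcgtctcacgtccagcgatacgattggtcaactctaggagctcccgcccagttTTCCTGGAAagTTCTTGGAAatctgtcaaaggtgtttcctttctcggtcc
Socs1 (chr16:10785487-10785786, minus strand): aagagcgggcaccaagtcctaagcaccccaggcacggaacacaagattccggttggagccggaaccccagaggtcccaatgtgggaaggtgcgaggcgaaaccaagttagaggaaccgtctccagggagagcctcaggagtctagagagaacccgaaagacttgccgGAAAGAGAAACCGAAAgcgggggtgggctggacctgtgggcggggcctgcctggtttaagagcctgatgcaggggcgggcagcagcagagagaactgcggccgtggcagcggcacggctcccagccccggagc
Socs3 (chr11:117969317-117969616, minus strand): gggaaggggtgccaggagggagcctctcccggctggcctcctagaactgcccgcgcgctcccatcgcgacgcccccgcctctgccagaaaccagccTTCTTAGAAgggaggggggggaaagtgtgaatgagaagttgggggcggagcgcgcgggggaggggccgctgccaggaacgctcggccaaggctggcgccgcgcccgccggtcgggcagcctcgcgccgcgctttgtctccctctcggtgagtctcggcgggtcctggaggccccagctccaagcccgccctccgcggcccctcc

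The Cish window held 2 STAT-type matches in tandem, TTCCTGGAA and TTCTTGGAA, at bases 1 to 9 and 12 to 20 counted from the RefSeq gene start as base 1. The deposited Cish transcript starts 30 bases downstream of that gene start, so both matches lie just before it. At least 1 such match was present in 8.30% of the 32851 mouse promoter windows and at least 2 in 0.457%. Socs3 held 1 match, TTCTTAGAA, at bases -154 to -146 from the start of its deposited transcript, which is inside the longer RefSeq gene span. Socs1 held none of these but 2 overlapping interferon response-type matches, GAAAGAGAAA and GAAACCGAAA, between bases -83 and -68. The latter motif occurred at least once in 3.44% of windows and at least 2 times in 0.225%. In the Socs4 window these letters were not found. A match describes the sequence and does not show that a factor was bound there.

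Of the 8 family genes, Cish and Socs2 were lower in CD301b macrophages, Socs6 was higher, and 5 were not past the threshold. A gene was called when at least 1 of its transcripts passed an adjusted p of 0.05 (Benjamini-Hochberg, over all tested transcripts of the authors' deposited table) and the gene's summed FPKM moved the same way. FPKM counts fragments relative to transcript length and to the total of mapped fragments, so levels of different genes can be compared. By the same rule 11.0% of the 13039 tested genes were higher and 6.20% were lower, 17.2% in all. The family's median log2 fold was -0.054, beside 0.055 for all tested genes (log2 of FPKM + 1, CD301b macrophages over F4/80-negative cells). The table has 1 value for each transcript and population, so no spread between libraries accompanies any level, and the depth of the libraries is unknown. Where values are paired with "against", the one for CD301b macrophages comes first.

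**Figure D1:**
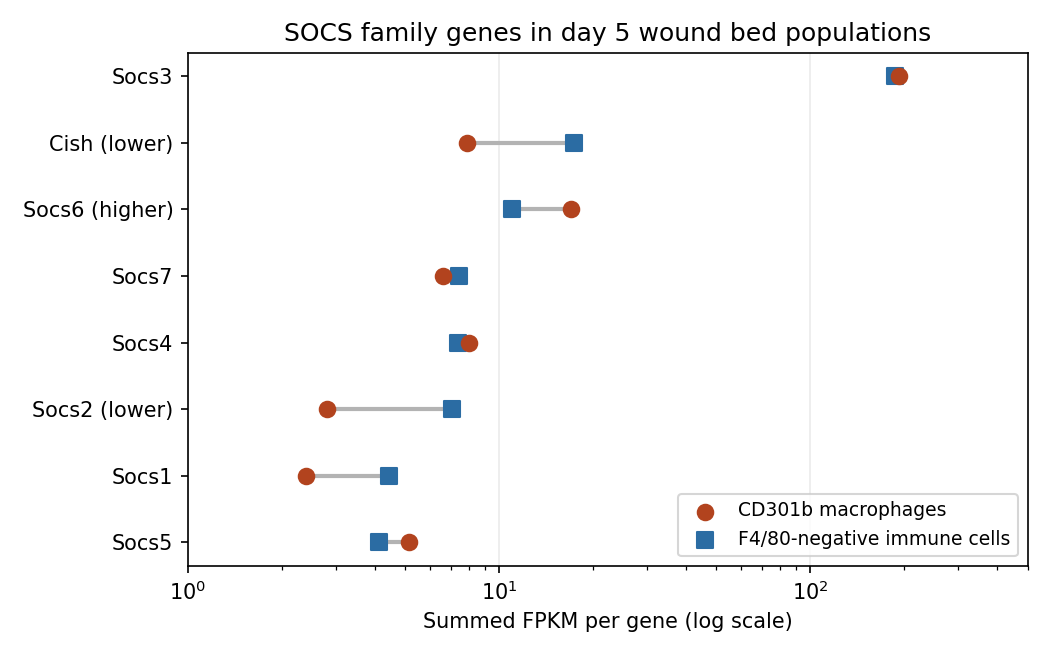
Summed FPKM of the 8 SOCS family genes on a log axis, with circles for CD301b macrophages and squares for F4/80-negative immune cells; each point is the authors' single value for a population, without an error. Socs3 stands far above the rest, at 193 and 187 FPKM, and Cish, Socs2 and Socs6 are marked with their call.

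Socs3 made up most of the family's transcripts in both populations. Its level was 193 FPKM in CD301b macrophages and 187 FPKM in F4/80-negative cells, which is 79.4% and 76.1% of the summed family. Among all genes of the table it ranked 432nd and 403rd. The other 7 members lay between 2.39 and 17.0 FPKM in CD301b macrophages and between 4.12 and 17.4 FPKM in F4/80-negative cells. Their sum was 49.8 against 58.8 FPKM. In CD301b macrophages the order below Socs3 was Socs6, Socs4, Cish, Socs7, Socs5, Socs2 and Socs1. In F4/80-negative cells it was Cish, Socs6, Socs7, Socs4, Socs2, Socs1 and Socs5. Cish thus stood right below Socs3 in F4/80-negative cells and lower in the order in CD301b macrophages. Without a spread between libraries, neighbours in these orders cannot be separated.

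Cish encodes CIS, an inhibitor induced by STAT5 that acts on receptors such as those of interleukin 2, erythropoietin and growth hormone. Its single transcript (NCBI gene 12700, chromosome 9, 107296659 to 107302784, GRCm38) was 7.87 FPKM in CD301b macrophages and 17.4 FPKM in F4/80-negative cells, which is 2.21-fold higher in the latter. The log2 fold of -1.05 was undercut by 2.09% of tested genes. The adjusted p from the authors' deposited table was 0.000999, the smallest value its p-values allow. GENCODE M21 places the antisense gene Gm17041 and the pseudogene Gm17040 on the opposite strand of the Cish locus. No source used here says whether counting used strand, so their reads may be counted with those of Cish.

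Socs2, also a STAT5 target and the inhibitor of growth hormone signalling that limits body size, had the largest fold of the family. Its 4 transcripts (NCBI gene 216233, chromosome 10, 95383903 to 95417321) summed to 2.80 against 7.08 FPKM, 2.53-fold higher in F4/80-negative cells, with a log2 fold of -1.09. The transcript NM_001168657 carried 81.4% of the gene's FPKM in CD301b macrophages and 93.4% in F4/80-negative cells. It alone passed the threshold, at 2.28 against 6.61 FPKM (adjusted p = 0.000999 from the authors' deposited table). A second tested transcript, NM_001168656, was 0.349 against 0.436 FPKM and did not pass. The remaining transcripts stayed below 0.2 FPKM in both populations and were not tested.

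Socs1 and Socs3 are the members that also inhibit the kinase activity of JAK directly, through a short segment ahead of the SH2 domain. Socs1, the main brake on interferon gamma signalling, was 2.39 against 4.43 FPKM (NCBI gene 12703, chromosome 16, 10783808 to 10785536). The ratio was 1.85 in favour of F4/80-negative cells, the direction of Cish and Socs2, but the gene was not called: its main transcript had an unadjusted p of 0.0483 and an adjusted p of 0.180 in the authors' deposited table. The second Socs1 transcript was under 0.001 FPKM in both populations. Socs3, the inhibitor of receptors that contain gp130, was nearly level at 193 against 187 FPKM (NCBI gene 12702, chromosome 11, 117966079 to 117970336). Its log2 fold of 0.040 changed sign, to -0.045, under scaling to the median gene of each population, and its adjusted p was 0.911 in the authors' deposited table.

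Socs6 and Socs7 form the branch of the family linked to receptor tyrosine kinases and insulin signalling, and Socs6 is known to bind the receptor Kit. Socs6 (NCBI gene 54607, chromosome 18) was 17.0 FPKM in CD301b macrophages and 11.0 FPKM in F4/80-negative cells, 1.55-fold higher in the macrophages. Its log2 fold of 0.59 was exceeded by 8.95% of tested genes, and its adjusted p was 0.0230 from the authors' deposited table. The call does not hold at a threshold of 0.01. Socs7 (NCBI gene 192157, chromosome 11, 97362292 to 97398542) was 6.60 against 7.41 FPKM and did not pass.

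Socs4 and Socs5 share a long N-terminal region and are known as regulators of the epidermal growth factor receptor. Socs4 (NCBI gene 67296, chromosome 14, 47276920 to 47296102) was 7.35 FPKM in F4/80-negative cells and 1.09-fold that level in CD301b macrophages. Socs5 (NCBI gene 56468, chromosome 17, 87107278 to 87137647) was 5.15 against 4.12 FPKM, with a log2 fold of 0.26. Neither passed, and the authors' deposited table gave adjusted p of 0.747 and 0.366. The 6 members other than Socs1 and Socs2 each had 1 transcript in the table, so their p-values refer to the whole gene.

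**Figure D2:**
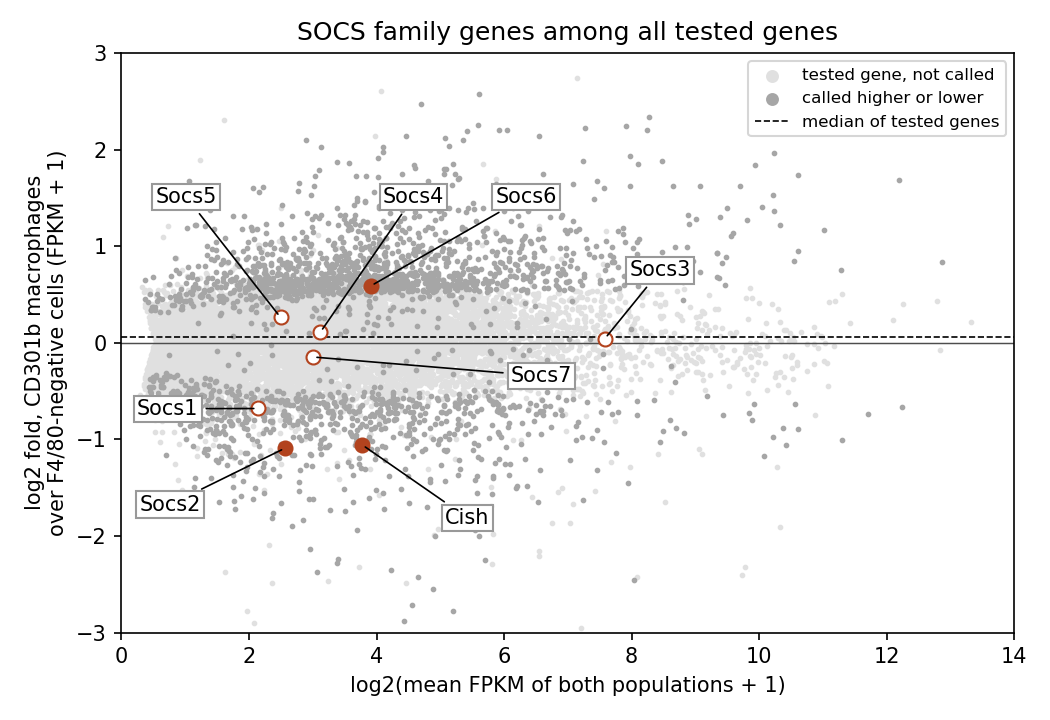
Log2 fold of FPKM + 1 (CD301b macrophages over F4/80-negative cells) against the log2 of the mean FPKM + 1 for each of the 13039 tested genes; filled circles are called SOCS family genes and open circles are those not past the threshold. Cish and Socs2 lie near -1, Socs6 near the lower edge of the called genes and Socs3 close to the median of tested genes; 70 genes with an absolute log2 fold over 3 lie outside the axes.

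The ligase machinery that SOCS proteins recruit was expressed in both populations. For the counts of called genes in this and the following lists, the shares over all tested genes were 11.0% higher and 6.20% lower. No list was tested as a set against these shares. Of 8 genes for elongins, cullins and their ring and neddylation partners, 1 was higher in CD301b macrophages and none was lower, with a median log2 fold of -0.037. The higher gene was Cul5, the cullin used by SOCS ligases, at 5.02 against 3.33 FPKM (1.51-fold, adjusted p = 0.0239 from the authors' deposited table). The other 7 ranged in log2 fold from -0.44, for the ubiquitin-like modifier Nedd8, to 0.24, for Cul2. None of 16 tested genes of other SOCS box proteins was past the threshold in the authors' Cuffdiff results. Of these, 8 had a transcript with an unadjusted p under 0.05. For unadjusted p-values no share over all tested genes is given, here or for the marker genes below. The most abundant of the 16 were Wsb1 (104 against 95.1 FPKM) and Wsb2 (35.4 against 38.4 FPKM). The difference in called genes between this list and the SOCS family was not tested.

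Of 10 genes for the kinases and STAT factors that SOCS proteins control, 2 were lower in CD301b macrophages and 8 did not pass, with a median log2 fold of -0.039. Jak2, the kinase of the receptors for growth hormone, erythropoietin and granulocyte-macrophage colony-stimulating factor (GM-CSF), was 20.9 against 46.1 FPKM. It was 2.21-fold higher in F4/80-negative cells, and both of its transcripts passed. The authors' deposited table gave it an adjusted p of 0.000999. Stat3 was called lower through 1 minor transcript (6.87 against 12.9 FPKM), while its main transcript was 40.5 against 41.1 FPKM. Stat5a and Stat5b, the factors that act on Cish and Socs2, were 8.10 against 14.2 FPKM and 13.1 against 11.3 FPKM and did not pass.

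Other inhibitors of the pathway included 2 higher genes among 11 and no lower one, with a median log2 fold of 0.092. Pias1, a SUMO ligase that restrains STAT factors, was 14.4 against 8.47 FPKM (1.71-fold), and Cbl, a ubiquitin ligase of receptor tyrosine kinases, was 21.4 against 14.3 FPKM. Their adjusted p were 0.00458 and 0.0477 in the authors' deposited table. The phosphatase gene Ptpn6 was the most abundant of the list, at 118 against 95.3 FPKM, and did not pass.

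**Figure D3:**
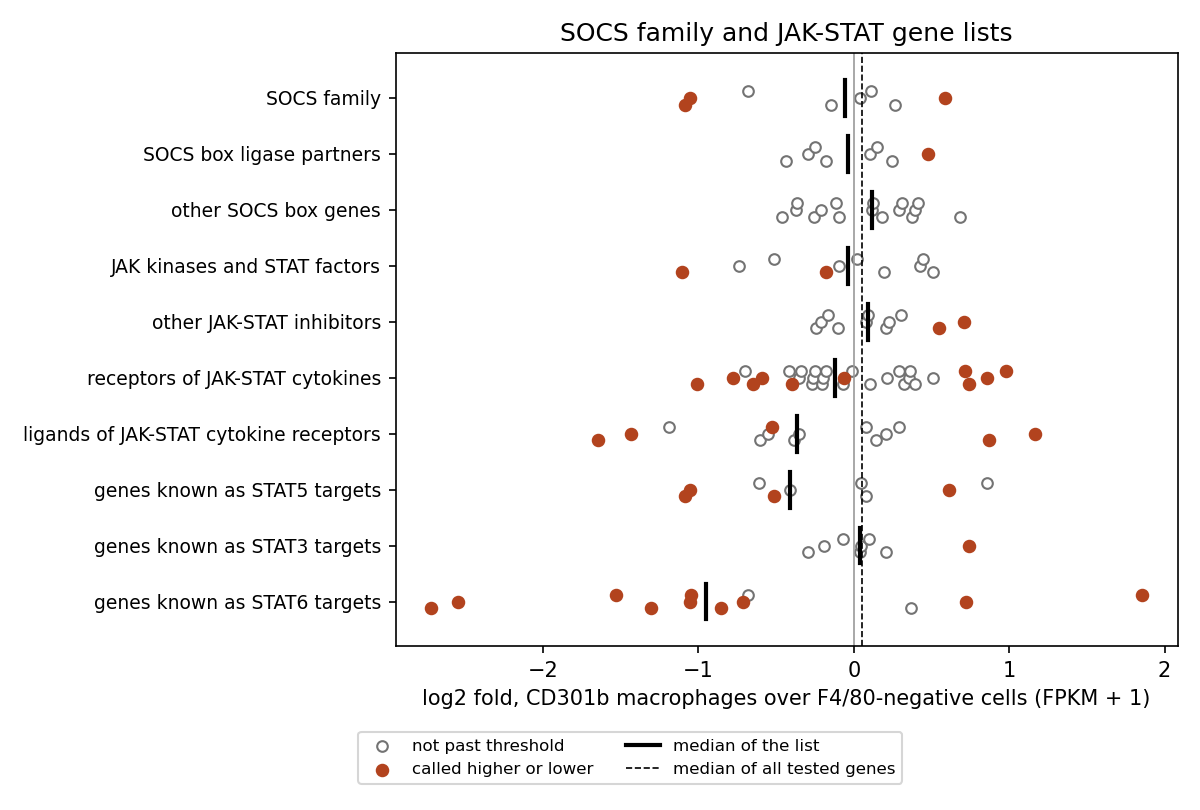
Log2 fold of FPKM + 1 of each tested gene in the SOCS family and in the lists of partners, kinases, inhibitors, receptors, ligands and STAT targets; filled points are called genes, black bars are list medians and the dashed line is the median of all tested genes (0.055). The SOCS family spans -1.09 to 0.59 and some genes stand in more than 1 list.

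Receptors whose signals SOCS proteins limit went both ways, with 4 of 30 tested genes higher in CD301b macrophages and 6 lower (median log2 fold -0.12). The chains of the GM-CSF receptor, which signals through JAK2 and STAT5, were both lower. Csf2rb was 91.5 against 185 FPKM (2.02-fold) and Csf2ra was 53.9 against 84.9 FPKM (1.58-fold). Csf2rb has a close copy, Csf2rb2, at 45.9 against 61.6 FPKM and not past the threshold, and reads shared by the copies may have been split between them. Il7r was lower at 9.40 against 16.8 FPKM. Of the 30 genes, 20 did not pass. Among these were Il3ra (7.08 against 7.13 FPKM), Il15ra (6.66 against 11.5 FPKM) and Il21r (28.3 against 21.9 FPKM). The higher genes were Il10rb (1.98-fold), Ifnar2 (1.65-fold), Il4ra (1.68-fold) and Lifr (1.89-fold). The call of Csf3r, counted among the lower genes, rested on a noncoding transcript (3.53 against 7.68 FPKM), while its main transcript was 47.2 against 44.7 FPKM. Among receptors named above with single SOCS members, Ghr, tied to Socs2, was 3.05 against 3.65 FPKM and did not pass. Il6st, which encodes gp130, was 28.7 against 26.7 FPKM and did not pass either. Il2ra, a chain of the interleukin 2 receptor, was lower at 1.04 against 2.08 FPKM. The other chains of that receptor, Il2rb (1.77 against 2.19 FPKM) and Il2rg (111 against 90.3 FPKM), did not pass. Epor, which encodes the erythropoietin receptor, had a log2 fold of 0.36 and did not pass. The receptors named with Cish were thus not lower as a set. Kit, tied to Socs6 and listed here as a mast cell marker, was lower at 1.06 against 5.33 FPKM.

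Few ligands of these receptors were abundant. Of 23 listed, 14 were tested, and in CD301b macrophages 2 were higher and 3 lower, with a median log2 fold of -0.37. Il6 was 17.3 against 48.3 FPKM (2.80-fold higher in F4/80-negative cells) and Lif was 4.61 against 7.09 FPKM, both ligands of receptors with gp130. Il10, which induces Socs3 in macrophages, was 15.2 against 6.19 FPKM (2.45-fold higher in CD301b macrophages), and Tslp was 3.55 against 1.49 FPKM. Osm, the most abundant ligand, was 109 against 103 FPKM, nearly as level as Socs3. Csf2, which encodes GM-CSF, was 1.03 against 1.59 FPKM and did not pass.

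Genes known as targets of the same STAT factors were set beside the family members that respond to them. Of 9 STAT5 targets, 3 were lower and 1 was higher, with a median log2 fold of -0.41. However, 2 of the lower ones were Cish and Socs2 themselves, and they also enter that median. The third was the cyclin Ccnd2 (7.66 against 11.3 FPKM, adjusted p = 0.0453 from the authors' deposited table). Bcl6, a transcriptional repressor, was higher at 15.5 against 9.81 FPKM. The 5 STAT5 targets that did not pass went both ways. Their log2 folds were 0.86 for Bcl2l1, 0.076 for Osm, 0.043 for Pim1, -0.41 for Pim2 and -0.61 for Myc. The list was not split by whether STAT5 raises or lowers a target, so these directions do not show STAT5 activity. Of 8 STAT3 targets, Socs3 among them, Il4ra alone was called, and their median log2 fold was 0.041. Of 12 STAT6 targets, which include Cish and Socs1, 8 were lower and 2 were higher, with a median log2 fold of -0.95. The higher ones were Arg1 (429 against 260 FPKM) and Mrc1 (427 against 117 FPKM), and the lower ones included Retnla (167 against 274 FPKM).

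The genes nearest in log2 fold to the called members were sought among 83 pathway genes at 5 FPKM or more, with the SOCS family itself left out. With 2 populations this likeness is a single difference between log2 folds. For Cish they were Mgl2, which encodes CD301b, and Csf2rb, with differences of 0.0039 and 0.046. For Socs2 they were Jak2 and Mgl2, with differences of 0.016 and 0.039. For Socs6 they were Bcl6 and Cbl, with differences of 0.023 and 0.037.

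Marker genes of some cell types also differed between the populations, while those of others did not pass. Of 8 macrophage markers all were higher in CD301b macrophages, with a summed level of 6749 against 2146 FPKM, so F4/80-negative cells also carried them. Adgre1, which encodes F4/80, was 557 against 151 FPKM, and Mgl2 was 49.2 against 103 FPKM, opposite to the sort for CD301b; its close copy Clec10a may share some of its reads. Of 8 dendritic cell markers 6 were lower and none higher, with sums of 67.0 against 241 FPKM. Of 7 mast cell markers 5 were lower, with sums of 105 against 164 FPKM. Most of the mast cell sum came from Hdc (84.9 against 108 FPKM), which did not pass. Of 6 neutrophil markers 3 were lower, with sums of 2183 against 3926 FPKM. Most of the neutrophil sum came from S100a8 (938 against 1725 FPKM) and S100a9 (1092 against 2025 FPKM). Cxcr2 (27.3 against 25.7 FPKM) and Mmp8 (8.08 against 7.45 FPKM) did not pass, and the call of Csf3r rested on the noncoding transcript described above. No marker of these lists was at 0 in both populations. T, NK and B cell markers summed to 3.18 against 4.04, 3.61 against 4.09 and 0.558 against 0.695 FPKM, and most of them were not tested by the authors: 3 of 6 T cell, 2 of 5 NK cell and 0 of 4 B cell markers were tested. None of those tested passed in the authors' Cuffdiff results or had an unadjusted p under 0.05. Of 6 fibroblast markers 1 was lower (4200 against 6197 FPKM summed), 5 had an unadjusted p under 0.05, and all log2 folds lay between -0.75 and -0.37. The keratinocyte (140 against 175 FPKM) and endothelial markers (55.1 against 63.8 FPKM) had none past the threshold and 1 and 0 genes with an unadjusted p under 0.05. The part of other cell types in the levels of Cish, Socs2 and Socs6 was not tested. In these sorted pools a smaller share of cells that express a gene and less RNA in each cell cannot be told apart.

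**Figure D4:**
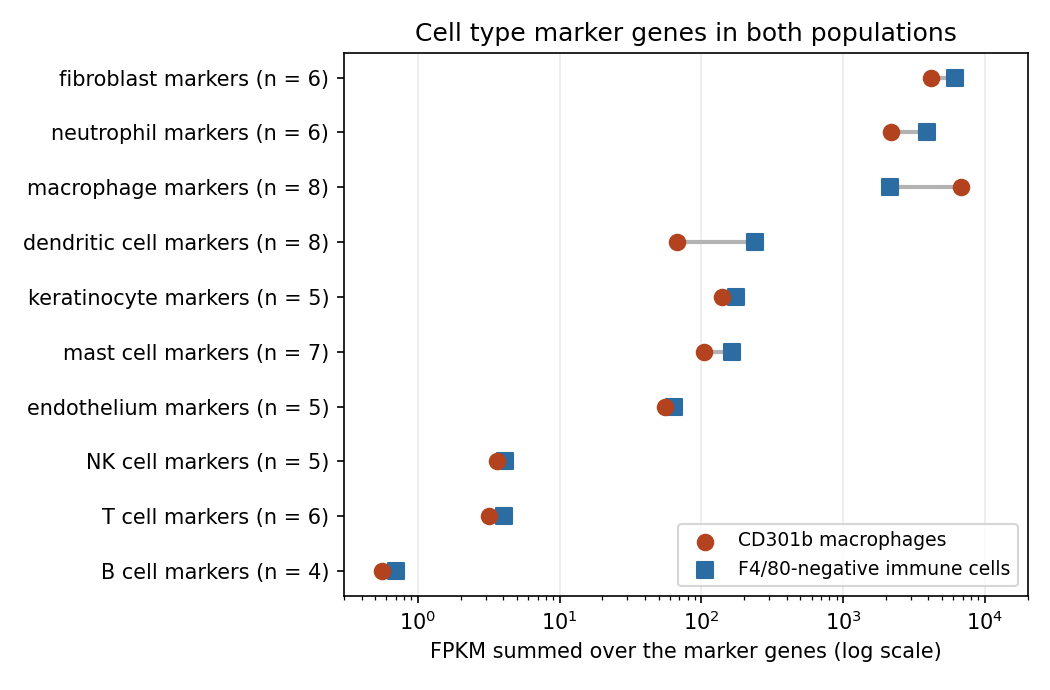
FPKM summed over the marker genes of each cell type, on a log axis, with circles for CD301b macrophages and squares for F4/80-negative immune cells; n is the number of marker genes in the table. Macrophage markers are higher in CD301b macrophages (6749 against 2146 FPKM), and the sums of the other lists are higher in F4/80-negative cells, with the widest gap for dendritic cell markers.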

How the data were processed

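RNA was sequenced from TruSeq mRNA libraries, per the labels' protocols. TopHat2 2.0.2, Cuffdiff 2.0.2 and the build mm9 are named, with no settings, per the submitters' processing notes. However, 99.2% of loci whose accession was found in RefSeq overlapped that gene on GRCm38, so GRCm38 positions are given. The authors deposited 1 FPKM per transcript and population and an unadjusted p-value, per the file headers. The smallest of these Cuffdiff p-values was 5e-05. For the step that combined libraries, the sources used here give no method. FPKM times transcript length took 12237 distinct values in 12238 genes with a single transcript, so whole reads were not recovered.

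FPKM was summed over a symbol's transcripts. Deposited p-values were adjusted by Benjamini-Hochberg over the 16921 tested transcripts, which matched all 2408 deposited calls. A gene's p is the smallest of its transcripts. Log2 folds use a pseudocount of 1. Symbols turned into dates (56 transcripts) were restored by accession. Some genes of the pathway lists are not reported here. Values per library were absent from this table, so significance rests on the deposited p-values. Alternatives changed the adjustment, threshold, filter, scaling, call rule and pseudocount. All members were named, with up to 4 called members of each list by level (or the 2 highest where none was called), genes that a sentence on a member needs, and the genes nearest in fold. Lifr, Ptpn6, Osm, Nedd8, Cul2, Csf2, Il2ra and Kit and the neutrophil markers were named after their values were seen. So were Il2rb, Il2rg, Epor, Il3ra, Il15ra, Il21r and the STAT5 targets that were not called. The members and lists were chosen with earlier results of these data known. The adjustment and call rule were tested on simulated data. Python 3.11.15, pandas 2.3.3, numpy 2.4.6 and matplotlib 3.10.9 were used.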

Additional observations from a re-analysis of the deposited data

How the results depend on the processing

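Across 7 alternatives, 54 of 56 log2 folds of the 8 SOCS genes kept their direction and their side of the threshold. Many of these outcomes were fixed by the setting, so the count says little about robustness. The adjustment, threshold and filter left every log2 fold as it was. Scaling, call rule and pseudocount left every adjusted p as it was, and a pseudocount cannot alter a direction. The call rule could change nothing in the 6 members with 1 transcript. Under scaling to the median gene, which shifts all folds by -0.085 on the log2 scale, Socs3 went from 0.040 to -0.045. At a threshold of 0.01 Socs6 was no longer called and the SOCS genes called higher numbered 0, while Cish and Socs2 stayed lower. The adjusted p of Socs6, from Cuffdiff p-values, lay between 0.0196 and 0.0230 over its alternatives. At 0.01 the counts over all tested genes fell to 848 higher and 461 lower, from 1432 and 808, and the lower genes of the other pathway lists to 12 from 19. The alternatives for these lists and for transcripts were added after seeing the data. No paired analysis was possible because the table holds 1 value per population, and for the same reason no library could be left out. Depth is unknown, so its effect on the low members could not be assessed.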
